A study of Mus musculus with 4 samples.

Results

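The ON bipolar mGluR6 cascade is the set of proteins with which ON bipolar cells of the retina read glutamate from photoreceptors. Its 10 listed genes were Grm6, Trpm1, Gnao1, Gnb3, Gng13, Rgs11, Rgs7, Nyx, Gpr179 and Lrit3, looked up by symbol, and each symbol matched 1 row of the 32285 genes in all 4 matrices. They were followed by droplet-based single-cell RNA sequencing through dissociated retinas of mice at postnatal day 30, with 1 retina of 1 animal in each library. The groups were NLGF mice, 1 female and 1 male, and wild-type (WT) mice, 1 female and 1 male. The labels give the genotype only by the name NLGF, which in this field usually denotes mice whose own App gene has been replaced by a knock-in allele with a humanised amyloid beta sequence and several familial Alzheimer mutations. No strain, treatment or other allele is given for either group, and no feature of the count tables used here checks the genotype. With n = 2 animals per genotype, and sex split evenly between the genotypes, every comparison rests on 4 animals.

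In darkness photoreceptors release glutamate, which activates mGluR6, the receptor encoded by Grm6, at the dendritic tips of rod bipolar cells and ON cone bipolar cells. Its G protein Go, built of the alpha subunit Gnao1 and the beta and gamma subunits Gnb3 and Gng13, keeps the cation channel Trpm1 closed. Light stops the release, the RGS proteins Rgs7 and Rgs11 speed up GTP hydrolysis on Gnao1, and Trpm1 opens. Gpr179 anchors the RGS proteins at the synapse, and the leucine-rich-repeat proteins Nyx and Lrit3 are needed to place Trpm1 there. Loss of several of these genes causes congenital stationary night blindness. OFF cone bipolar cells use ionotropic glutamate receptors of the AMPA and kainate kinds in place of mGluR6.

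Promoter sequences are shown for 3 members whose counts were highest in bipolar cells and, as a contrast, for Lrit3, whose counts were highest in photoreceptors. Each run holds the 250 bases before the first start site that RefSeq lists on GRCm38.p6, read 5′ to 3′ on the strand of the gene. Capitals mark GGATTA, the core that the bipolar and photoreceptor homeobox factors Otx2 and Crx are known to bind. The Grm6 run is chr11:50850435-50850684 on the plus strand, Trpm1 is chr7:64153585-64153834 on the plus strand, Gng13 is chr17:25716922-25717171 on the plus strand and Lrit3 is chr3:129804137-129804386 on the minus strand.
Grm6: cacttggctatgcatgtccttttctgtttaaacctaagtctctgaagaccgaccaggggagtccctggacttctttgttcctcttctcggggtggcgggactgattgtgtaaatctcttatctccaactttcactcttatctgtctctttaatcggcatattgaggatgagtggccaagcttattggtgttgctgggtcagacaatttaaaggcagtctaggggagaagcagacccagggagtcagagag
Trpm1: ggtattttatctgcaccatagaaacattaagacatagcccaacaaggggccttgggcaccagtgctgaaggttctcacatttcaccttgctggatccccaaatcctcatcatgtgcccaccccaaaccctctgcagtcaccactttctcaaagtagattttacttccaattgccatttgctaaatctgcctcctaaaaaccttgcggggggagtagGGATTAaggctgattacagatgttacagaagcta
Gng13: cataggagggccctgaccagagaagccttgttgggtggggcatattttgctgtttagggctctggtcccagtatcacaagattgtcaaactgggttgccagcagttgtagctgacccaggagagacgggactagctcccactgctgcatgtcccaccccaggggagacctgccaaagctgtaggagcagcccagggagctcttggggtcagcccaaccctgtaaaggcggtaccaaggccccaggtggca
Lrit3: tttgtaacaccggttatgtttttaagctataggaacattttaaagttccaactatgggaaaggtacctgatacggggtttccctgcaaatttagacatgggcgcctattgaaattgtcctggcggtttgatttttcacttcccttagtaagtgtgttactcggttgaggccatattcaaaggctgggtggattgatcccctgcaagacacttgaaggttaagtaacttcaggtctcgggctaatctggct
GGATTA, searched on both strands, was found once, on the plus strand of the Trpm1 run, at bases 34 to 29 before the start. Of 10 start sites that the table holds for 8 members, 1 had GGATTA, and of all 32851 runs of the same length 6.25% had it. The E-box CAGCTG was in 0 of the 10 member runs and in 13.0% of all runs, and the E-box CATATG in 0 of 10 and in 3.46%. A match is a description of letters and no evidence of binding. The table holds no entry for Gnb3 and Rgs11, and its start for Lrit3 lies upstream of the one in GENCODE M21, which places the gene at 129787881 to 129804030 of chromosome 3. In the same annotation Grm6 spans 50850685 to 50866208 of chromosome 11 and Trpm1 spans 64153835 to 64269775 of chromosome 7, both protein-coding on the plus strand.

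The 4 libraries held 8060 and 9005 barcodes (NLGF female and male) and 9058 and 9068 barcodes (WT female and male), with median depths of 1005 and 1054 UMIs (unique molecular identifiers, each standing for 1 captured RNA molecule) in NLGF and 945.5 and 1168.5 UMIs in WT. Any pair of libraries shared 17 to 34 barcodes. After filters, 31532 cells were kept, of which 611 were named rod bipolar, 942 ON cone bipolar and 380 OFF cone bipolar cells from marker genes, with the 10 cascade genes left out of both the clustering genes and the markers. Per library there were 138 and 145 rod bipolar cells in NLGF and 158 and 170 in WT, 203 and 234 ON cone bipolar cells in NLGF and 241 and 264 in WT, and 49 and 100 OFF cone bipolar cells in NLGF and 115 and 116 in WT, each pair female then male. The names came from marker genes, so the levels of those markers describe the classes and are no independent check of them. Prkca, the classic rod bipolar marker, averaged 3643 CPM (counts per 1e+06 UMIs of the class in a library) in rod bipolar cells, 79.2 CPM in ON and 42.4 CPM in OFF cone bipolar cells. Isl1, a transcription factor of the ON types, averaged 987 CPM in rod bipolar cells, 978 CPM in ON and 95.7 CPM in OFF cone bipolar cells, and Grik1, a kainate receptor subunit of OFF types, 47.6, 38.5 and 797 CPM in the same order. ON and OFF cone bipolar clusters were told apart by Isl1 and Grik1, and rod bipolar clusters by a score over 7 markers with Prkca among them. Other listed markers did not all follow the names. Of the ON list, Scgn, a calcium-binding protein that stands on both lists, averaged 1077 CPM in ON and 1589 CPM in OFF cone bipolar cells, Serpini1 91.7 and 132 CPM, and Spon1 7.44 and 7.96 CPM, and of the OFF list Pcdh17 averaged 146 CPM in ON and 109 CPM in OFF cone bipolar cells. The cluster led by Gas1, named ON, scored higher for the OFF list than for the ON list (mean z of 0.79 and 0.27), and the cluster led by Erbb4, named OFF, scored 0.28 for the OFF list and 0.38 for the ON list. All class levels below are CPM of UMIs summed per library and class, given as a description with no test, because the classes come from clustering the same cells. Droplet counts come from the 3′ end of transcripts, so levels are compared between classes and libraries within a gene, not between genes.

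Of the 10 members 8 were highest in a bipolar class, the others being Gnb3 and Lrit3. Grm6, the receptor itself, was at 443 and 482 CPM in rod bipolar cells of NLGF and at 440 and 489 CPM in those of WT, each pair again female then male. In ON cone bipolar cells Grm6 was at 534 and 497 CPM in NLGF and at 478 and 504 CPM in WT. The libraries of these 2 classes overlapped. Grm6 in OFF cone bipolar cells was at 61.2 and 102 CPM in NLGF and 37.5 and 47.5 CPM in WT, below every ON-type value, and the mean over 4 libraries was 8.11 times as high in ON as in OFF cone bipolar cells (4.87 to 12.8 times by library). Rods, which use the visual pigment and not mGluR6, were at 6.5 to 11.1 CPM. A UMI of Grm6 was seen in 96.6% of rod bipolar cells, 83.3% of ON cone bipolar cells and 12.9% of OFF cone bipolar cells, against 1.07% of rods. Those shares carry 95% exact (Clopper-Pearson) intervals of 94.8 to 97.9%, 80.8 to 85.7%, 9.69 to 16.7% and 0.945 to 1.20%. Median depths were 8912 UMIs in rod bipolar cells, 7295 in ON cone bipolar cells, 9590 in OFF cone bipolar cells and 885 in rods. With every cell thinned to 1000 UMIs, which left out 15269 of 25883 rods, the shares were 38.5%, 38.8%, 2.11% and 0.73%. Intervals here and below cover counting error only.

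Trpm1, the channel that the cascade holds shut, formed 3 separate steps. It was at 4421 and 4399 CPM in rod bipolar cells of NLGF and at 4549 and 4643 CPM in those of WT. ON cone bipolar cells had 1500 and 1472 CPM in NLGF and 1249 and 1452 CPM in WT. In OFF cone bipolar cells Trpm1 was at 750 and 738 CPM in NLGF and 602 and 618 CPM in WT. No library of one step overlapped the next, and the mean in rod bipolar cells was 3.18 times that in ON cone bipolar cells, which in turn was 2.09 times that in OFF cone bipolar cells. Unlike Grm6, Trpm1 was seen in most OFF cone bipolar cells, 91.3% of them (88.0 to 93.9%), against 99.8% of rod bipolar cells, 85.2% of ON cone bipolar cells and 4.35% of rods. Thinned to 1000 UMIs per cell, Trpm1 was seen in 41.1% of OFF cone bipolar cells and 2.66% of rods. Both Grm6 and Trpm1 were seen in the same cell in 96.4% of rod bipolar, 71.5% of ON cone bipolar and 12.6% of OFF cone bipolar cells.

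**Figure D1:**
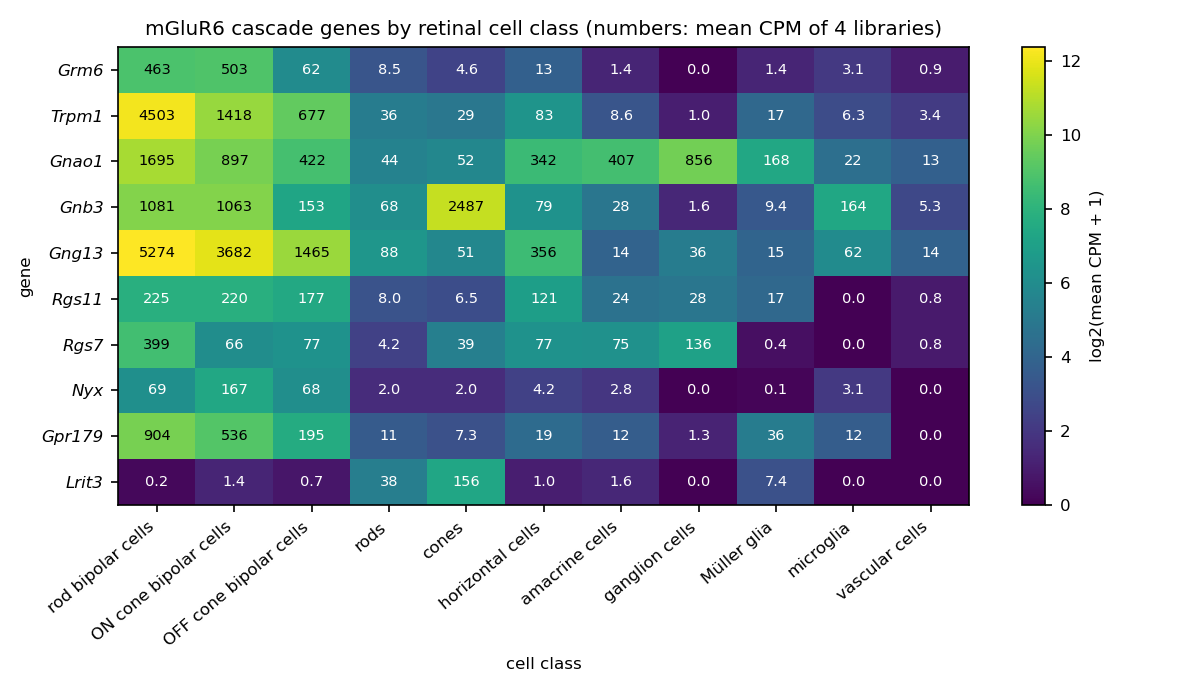
Mean level of each cascade gene (rows) in each of 11 cell classes (columns) over 4 libraries, in CPM, with colour on a log scale. Of the 10 genes 8 are highest in a bipolar class, while Gnb3 and Lrit3 are highest in cones and Lrit3 is near 0 in bipolar cells.

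The G protein subunits differed in how far they reached beyond the ON bipolar cells. Gnao1, the alpha subunit of Go and a protein common to many neurons, was at 1594 and 1716 CPM in rod bipolar cells of NLGF and at 1723 and 1746 CPM in those of WT. Its mean over the 4 libraries was 897 CPM in ON cone bipolar cells, 856 CPM in ganglion cells, whose libraries overlapped those of ON cone bipolar cells, 422 CPM in OFF cone bipolar cells and 407 CPM in amacrine cells. Gnb3, the beta subunit that ON bipolar cells and cones are known to share, was highest in cones, at 2267 and 2391 CPM in NLGF and 2551 and 2739 CPM in WT. In rod bipolar cells Gnb3 was at 1073 and 1004 CPM in NLGF and 1124 and 1124 CPM in WT, and the range in ON cone bipolar cells, 958 to 1139 CPM, covered these values. OFF cone bipolar cells were lower, at 176 and 208 CPM in NLGF and 110 and 117 CPM in WT, and the ON cone bipolar mean was 6.95 times theirs. Gng13, the gamma partner of Gnb3, was at 5624 and 5224 CPM in rod bipolar cells of NLGF and 4791 and 5457 CPM in those of WT, with means of 3682 CPM in ON and 1465 CPM in OFF cone bipolar cells and 356 CPM in horizontal cells. Thus Grm6 and Gnb3 had the steepest step between ON and OFF cone bipolar cells among the 9 genes measured there, and Gng13, Nyx, Gpr179, Gnao1 and Trpm1 stepped down between 2.09 and 2.76 times.

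The 2 RGS proteins, which shut the G protein off, had unlike patterns. Rgs7 was at 384 and 407 CPM in rod bipolar cells of NLGF and 402 and 402 CPM in those of WT. ON cone bipolar cells had 72.4 and 71.4 CPM in NLGF and 62.6 and 56.8 CPM in WT, so that rod bipolar cells were 6.06 times as high by the means and 5.30 to 7.08 times by library. Rgs7 in OFF cone bipolar, horizontal, amacrine and ganglion cells overlapped the ON cone bipolar range. Rgs11, by contrast, was nearly flat over the bipolar classes, with means of 225 CPM in rod bipolar, 220 CPM in ON cone bipolar and 177 CPM in OFF cone bipolar cells. Horizontal cells held 110 to 127 CPM of Rgs11. The ratio of rod bipolar to ON cone bipolar cells was thus 6.06 for Rgs7 and 1.02 for Rgs11.

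Nyx, which codes for nyctalopin, was the member with the clearest excess in ON cone bipolar over rod bipolar cells. It was at 173 and 172 CPM in ON cone bipolar cells of NLGF and 164 and 160 CPM in those of WT. Rod bipolar cells had 83.8 and 61.8 CPM in NLGF and 68.4 and 63.0 CPM in WT, 0.41 times the ON cone bipolar mean, and OFF cone bipolar cells had 54.7 to 82.8 CPM. Gpr179, the anchor of the RGS proteins, had means of 904 CPM in rod bipolar, 536 CPM in ON cone bipolar and 195 CPM in OFF cone bipolar cells, with no overlap between these classes. Lrit3 stood apart from all other members. In cones it was at 149 and 167 CPM in NLGF and at 153 and 155 CPM in WT, and in rods at 44.5 and 35.9 CPM in NLGF and 38.2 and 35.1 CPM in WT. Rod bipolar cells held 1 Lrit3 UMI in 611 cells, ON cone bipolar cells 9 UMIs in 942 cells and OFF cone bipolar cells 3 UMIs in 380 cells. A Lrit3 UMI was seen in 68.2% of cones (64.5 to 71.6%, median depth 9071.5 UMIs) and 0.164% of rod bipolar cells, which are sequenced to a like depth.

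As a gauge of free RNA, each member was set beside Pcp2, a Purkinje and bipolar cell protein and an abundant rod bipolar transcript, since RNA from 1 source keeps its genes in 1 ratio. In rod bipolar cells there were 5.46 Grm6 UMIs per 100 Pcp2 UMIs, and in rods 9.66. Trpm1 had 53.0 per 100 Pcp2 UMIs in rod bipolar cells and 40.7 in rods. For Gpr179 the ratio was 10.6 in rod bipolar cells, 12 in rods and 240 in Müller glia, where 235 Gpr179 UMIs stood beside 98 Pcp2 UMIs. Lrit3 had 43.1 per 100 Pcp2 UMIs in rods and 662 in cones. Gnb3 had 76.8 in rods against 12.7 in rod bipolar cells, and Rgs11 9.08 against 2.63. ON cone bipolar cells had other ratios, 29.6 for Grm6, 83.6 for Trpm1, 31.7 for Gpr179, 63.1 for Gnb3 and 13.0 for Rgs11. Of these genes only Gnb3 was higher in rods than in ON cone bipolar cells. Trpm1 was the only member with a lower ratio in rods than in rod bipolar cells. The rod bipolar markers Prkca and Sebox had 299 and 14.8 per 100 Pcp2 UMIs in rods, against 42.8 and 8.07 in rod bipolar cells. Car8, another rod bipolar marker, went the other way, at 7.62 in rods and 13.9 in rod bipolar cells. The part of free RNA in the low counts of rods was not tested.

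**Figure D2:**
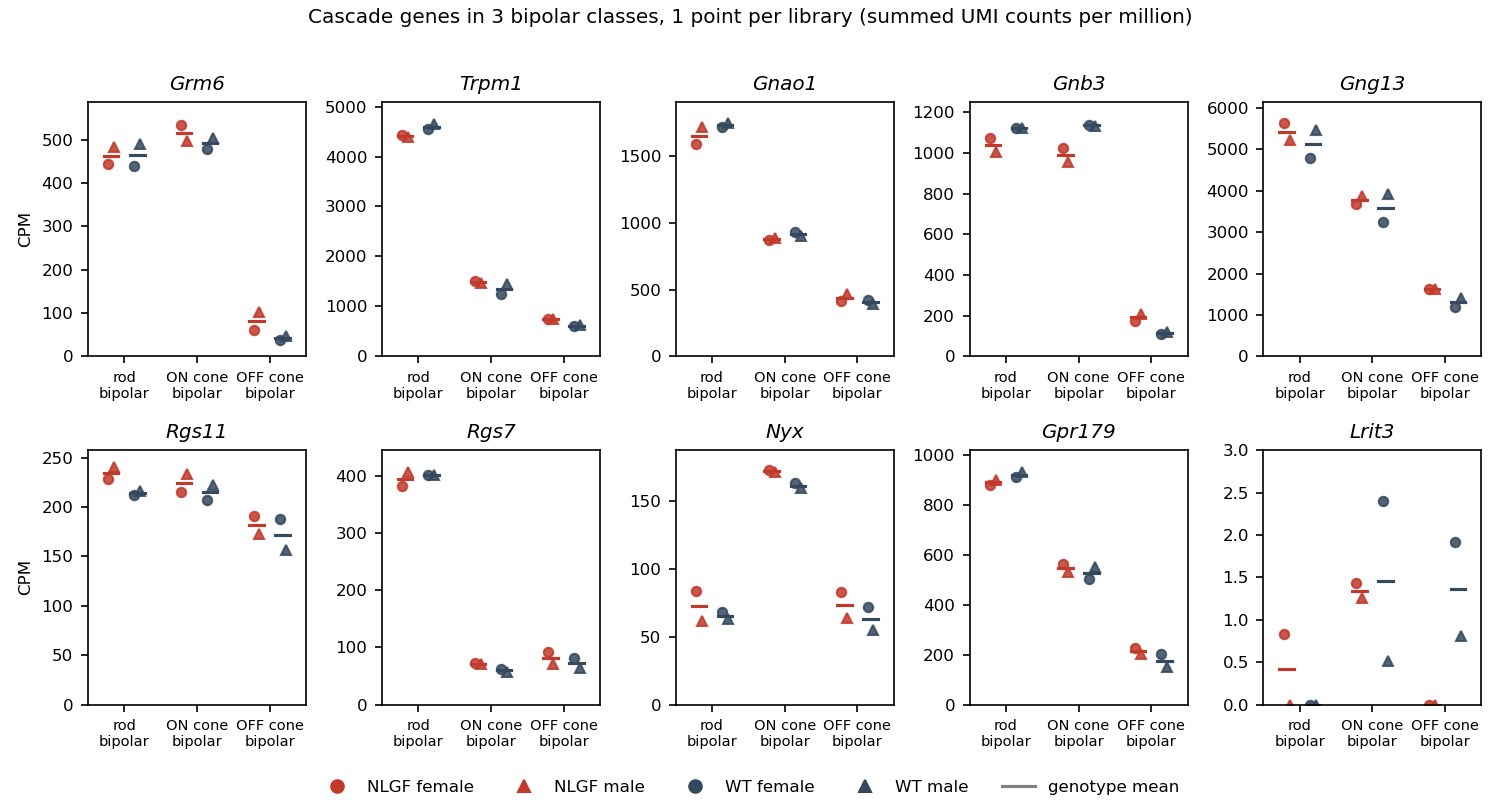
Level of each cascade gene in CPM for every library in rod bipolar, ON cone bipolar and OFF cone bipolar cells, with NLGF left of WT and a bar at each genotype's mean (n = 2 animals). Rgs7 and Trpm1 step down between rod bipolar and ON cone bipolar cells, Grm6 and Gnb3 between ON and OFF cone bipolar cells, and in OFF cone bipolar cells both NLGF values of Grm6 and Gnb3 lie above both WT values.

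Counted per cell at full depth, rod bipolar cells showed a mean of 8.14 of the 10 members and ON cone bipolar cells 7.01. OFF cone bipolar cells showed 5.20, cones 2.58, amacrine cells 2.13 and rods 0.36. Because rods were far shallower than bipolar cells, cells were also thinned to 1000 UMIs each, which kept 10614 of 25883 rods. The means were then 5.02 in rod bipolar, 3.83 in ON cone bipolar and 1.80 in OFF cone bipolar cells. Thinned cones showed 1.17, amacrine cells 0.43 and rods 0.25. At full depth, at least 7 members were seen in 97.5% of rod bipolar cells, 71.1% of ON cone bipolar cells and 31.6% of OFF cone bipolar cells.

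Within the ON cone bipolar class the members did not move as a block. Its 7 clusters, named here by a leading gene, had Grm6 between 331 and 810 CPM in 6 of them. In the cluster led by Lrrtm1 the 4 libraries together held 1 Grm6 UMI in 73 cells, 1.91 CPM, seen in 1.4% of the cells (exact interval 0.035 to 7.40%). That UMI was in the NLGF male library. The cluster was named ON because Isl1 was at 1071 CPM and Grik1 at 0, so these values are no independent check. It also held most of the rest of the cascade, with Trpm1 at 834 and 821 CPM in NLGF and 757 and 691 CPM in WT, and Gpr179 at 608 and 614 CPM in NLGF and 549 and 525 CPM in WT. Rgs7, at 193 CPM over all 4 libraries, was higher there than in any other ON cone bipolar cluster, while Gnb3 at 334 CPM, Gng13 at 1648 CPM and Rgs11 at 38.2 CPM were lower than in any other. Each of the 4 libraries gave 16 to 21 of these cells.

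The reverse pattern was seen in the cluster led by Gas1, with 140 cells. There Grm6 was at 353 and 308 CPM in NLGF and 348 and 315 CPM in WT, while Trpm1 was at 281 and 209 CPM in NLGF and 75.6 and 26.0 CPM in WT, 140 CPM over all cells and seen in 16.4% of them. Both NLGF libraries lay above both WT libraries for Trpm1, on 74 and 59 UMIs in NLGF against 25 and 8 UMIs in WT, and no test was run at the level of clusters. The cluster led by Cck, with 266 cells, had the most of both genes in the ON cone bipolar class, 810 CPM of Grm6 and 2929 CPM of Trpm1. Rgs7 was at 3.89 CPM, 3 UMIs, in the 119 cells of the cluster led by Areg and at 16.6 CPM in that led by Igfn1. Nyx was highest in the cluster led by Sox6, at 291 CPM, where Gnao1 was also highest, at 1456 CPM.

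Among the 5 OFF cone bipolar clusters, the one led by Ebf1 (125 cells) was highest for 6 of the 9 members other than Lrit3, whose 3 UMIs in the class were also there. It had 2551 CPM of Gng13, 283 CPM of Rgs11, 108 CPM of Nyx, 869 CPM of Trpm1, 259 CPM of Gpr179 and 440 CPM of Gnao1, yet only 23.1 CPM of Grm6, the least of the 5. The cluster led by Fat4 (77 cells) had 173 CPM of Gng13 and 13.4 CPM of Nyx. Grm6 and Gnb3 were highest in the cluster led by Grik1, at 130 and 301 CPM. The 2 rod bipolar clusters, led by Prkca (354 cells) and Sebox (257 cells), had 4743 and 4134 CPM of Trpm1 and 481 and 438 CPM of Grm6.

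**Figure D3:**
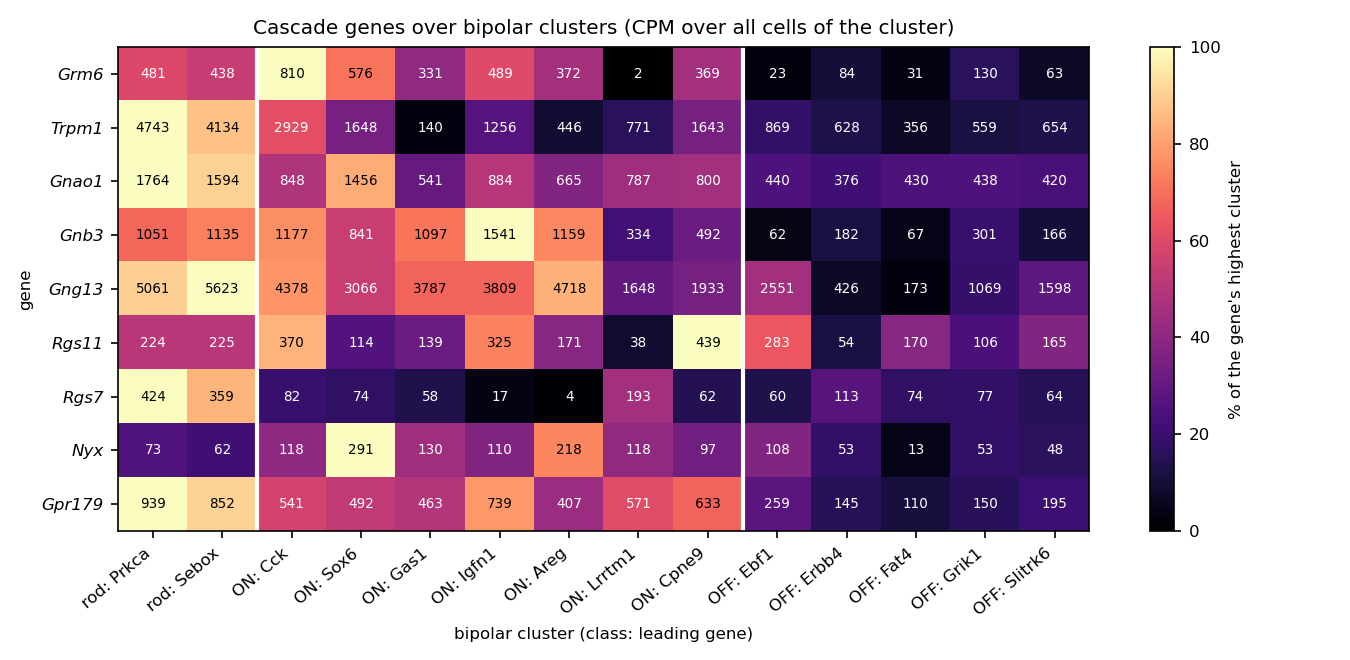
Pooled level of 9 cascade genes (rows; Lrit3 left out) in 14 bipolar clusters (columns, grouped as rod bipolar, ON cone and OFF cone bipolar), with the CPM printed and colour giving the percent of the gene's highest cluster. Grm6 is 1.91 CPM in the Lrrtm1 cluster where Trpm1 is 771 CPM, and Trpm1 is 140 CPM in the Gas1 cluster where Grm6 is 331 CPM.

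OFF cone bipolar cells were looked at again by whether a cell held a UMI of Isl1, the ON-type transcription factor, a split chosen after the values were seen. Of 380 cells, 58 had one. Those 58 cells held 250 of the 260 Grm6 UMIs of the class, 256 CPM, against 10 UMIs and 3.21 CPM in the 322 cells without an Isl1 UMI. Gnb3 was at 453 CPM with and 56.8 CPM without Isl1, Trpm1 at 1155 and 516 CPM, Gng13 at 2017 and 1276 CPM, Gpr179 at 343 and 141 CPM, and Rgs7 at 72.7 and 75.1 CPM. Grik1 was at 666 CPM with and 846 CPM without Isl1, and the median depth was 15112.5 and 8875 UMIs. Trpm1 and Gng13 therefore kept a level in OFF cone bipolar cells without Isl1 UMIs that Grm6 did not. A group of 22 cells with at least 5 Grm6 UMIs each held 75.4% of the Grm6 UMIs of the class. Whether cells with both ON and OFF marks are single cells or barcodes shared by cells of both kinds was not tested.

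Over all 44 combinations of class and library, the genes whose log2(CPM + 1) ran most like that of Grm6, among 11486 genes with at least 50 UMIs in bipolar cells, were Bhlhe23 (Pearson r = 0.960), Gabrr2 (0.931), 4933429O19Rik (0.931), Pcp2 (0.930) and Gm45218 (0.926), followed by Gm20754, Gm30382, Atp2b1, Gm48004 and Slc5a8, the last at 0.909. Bhlhe23 is a transcription factor of rod bipolar cells and Gabrr2 a subunit of GABA receptors on bipolar cells. Among the members, r was 0.951 for Trpm1, 0.939 for Nyx, 0.928 for Gng13 and 0.882 for Gpr179, while it was 0.736 for Rgs11, 0.679 for Gnb3, 0.560 for Gnao1 and 0.533 for Rgs7. The points share libraries and depth, so these values describe likeness and carry no p.

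The study's title is about changes that come before amyloid pathology, and the design compares NLGF with WT retinas. In rod bipolar cells no member passed the test, with 0 of 9 tested members called, against 0.122% of the 9013 genes tested (edgeR quasi-likelihood test, Benjamini-Hochberg adjusted p under 0.05 over all genes tested). Grm6 had a log2 fold change (NLGF over WT) of −0.01 ± 0.08 (SE, with 2 animals in each group) and Trpm1 one of −0.06 ± 0.06, with edgeR adjusted p = 0.998 and 0.911. For the G protein it was −0.07 ± 0.07 for Gnao1, −0.12 ± 0.08 for Gnb3 and 0.08 ± 0.06 for Gng13. The RGS proteins had 0.13 ± 0.08 for Rgs11 and −0.03 ± 0.08 for Rgs7, and Gpr179 had −0.05 ± 0.08. The widest error was that of Nyx, 0.14 ± 0.17. The median over the 9 members was −0.03 and over all genes 0.00, and 0 members were under an unadjusted p of 0.05, against 6.52% of all genes. DESeq2 also called 0 members. Lrit3 had too few UMIs to be tested in any bipolar class.

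In ON cone bipolar cells 0 of 9 members were called, beside 0% of 10429 genes tested. The edgeR test gave 665 genes at an unadjusted p under 0.05, and DESeq2 called 5 genes, none of them a member. Of the members, Gnb3 came nearest, at −0.22 ± 0.08, unadjusted p = 0.0114 and edgeR adjusted p = 0.728, with both NLGF libraries (1025 and 958 CPM) below both WT libraries (1139 and 1132 CPM). Rgs7 was at 0.25 ± 0.14, Trpm1 at 0.11 ± 0.08 and Grm6 at 0.04 ± 0.08, none past the threshold. The difference between the genotype effects in rod bipolar and ON cone bipolar cells, tested as an interaction, also called 0 of 9 members, beside 0.0566% of 10602 genes. Trpm1 had the smallest p of the members there, −0.18 ± 0.07 with edgeR adjusted p = 0.757. It was the 1 member under an unadjusted p of 0.05, a level at which the share of all genes was not counted for this fit. DESeq2 called 0 members.

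OFF cone bipolar cells gave the single member call in a bipolar class. Gnb3 rose in NLGF, to 176 and 208 CPM, against 110 and 117 CPM in WT, a log2 fold change of 0.76 ± 0.14 (1.69-fold; edgeR adjusted p = 0.0362), and 1 of 9 members called stands beside 0.0914% of 9847 genes. Grm6 had a log2 fold change of 1.00 ± 0.23 that did not pass, with unadjusted p = 0.0004 and edgeR adjusted p = 0.260, on 34 and 128 UMIs in NLGF against 39 and 59 UMIs in WT. It passed without the WT male library (1.19, edgeR adjusted p = 0.00526), with sex as a replicate block (0.94, edgeR adjusted p = 0.00195) and without a filter on low counts (0.99, edgeR adjusted p = 0.00328). Gng13 was at 0.29 ± 0.10 and Trpm1 at 0.27 ± 0.10, with unadjusted p = 0.0136 and 0.0166 and edgeR adjusted p = 0.935 for both. In all, 4 of 9 members (44.4%) were under an unadjusted p of 0.05, against 5.07% of all genes, and the median of the 9 members was 0.25 against 0.00 over all genes. The class was made of different shares of its clusters in each library. The cluster led by Fat4 gave 8 and 12 cells in NLGF and 34 and 23 cells in WT, and the cluster led by Grik1, highest for Gnb3 and Grm6, gave 5 and 21 cells in NLGF and 11 and 14 cells in WT. Within clusters Gnb3 did not move one way, at 21 and 44.9 CPM in NLGF and 81.0 and 74.4 CPM in WT in the Fat4 cluster (1 and 3 UMIs against 16 and 10 UMIs) and at 403 and 80.8 CPM in NLGF and 190 and 153 CPM in WT in the Erbb4 cluster. Cells with at least 5 Gnb3 UMIs, 36 of 380, held 69.1% of the Gnb3 UMIs of the class. The share of OFF cone bipolar cells with an Isl1 UMI moved the same way, being 24.5% and 21% in NLGF and 6.96% and 14.7% in WT, female then male. Isl1 itself was at a log2 fold change of 0.96 ± 0.24 with edgeR adjusted p = 0.390. Without those cells Gnb3 was at 50.8 and 70.9 CPM in NLGF and at 52.6 and 50.8 CPM in WT, and the call was lost, at 0.28 with edgeR adjusted p = 0.950. The call was also lost with DESeq2 (0.74, adjusted p = 1.00), without the NLGF female library (0.84, adjusted p = 0.154), without the NLGF male library (0.63, adjusted p = 0.853), with doublets kept (0.64, adjusted p = 0.080), with thinned sums (0.80, adjusted p = 0.167) and with finer clusters (0.44, adjusted p = 0.941). What part the cell mixture has in this result beyond these values was not tested.

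**Figure D4:**
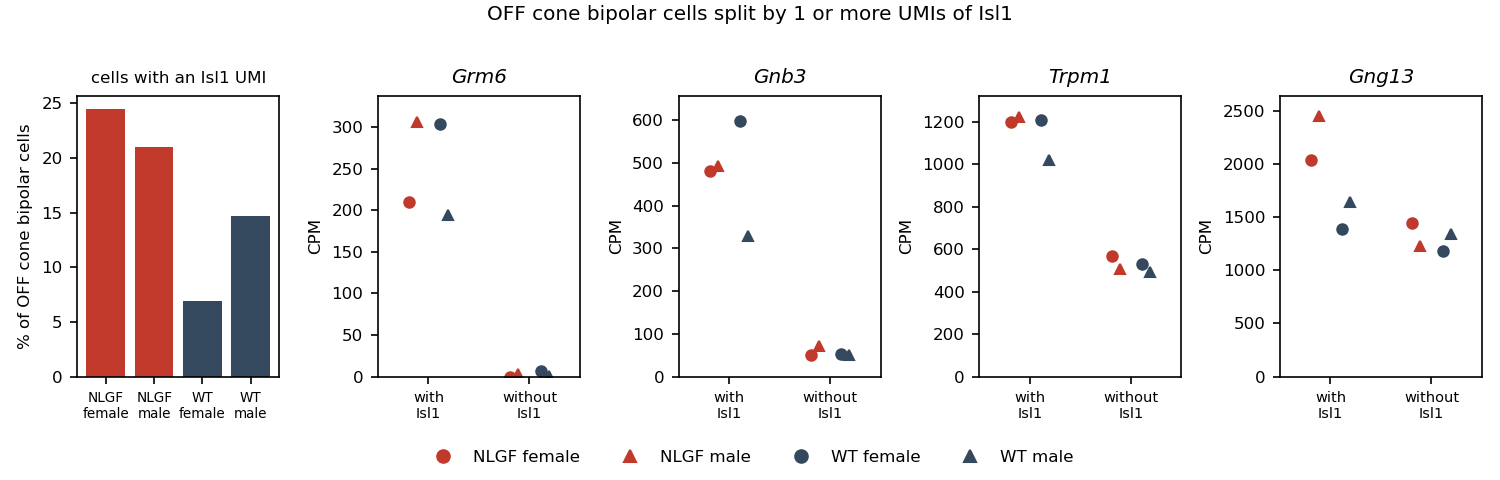
Left, percent of OFF cone bipolar cells with an Isl1 UMI in each library, NLGF left of WT. Right, CPM of Grm6, Gnb3, Trpm1 and Gng13 per library in OFF cone bipolar cells with and without an Isl1 UMI. Grm6 is near 0 in cells without Isl1 in all 4 libraries, and the share of cells with Isl1 is higher in both NLGF libraries.

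Outside the bipolar cells, 1 further member call was made, for Gpr179 in Müller glia, the radial glia of the retina. It fell to 30.7 and 17.0 CPM in NLGF, against 43.2 and 52.1 CPM in WT, on 57 and 31 UMIs in NLGF and 51 and 96 UMIs in WT, a log2 fold change of −1.06 ± 0.23 (edgeR adjusted p = 0.0171), so that 1 of 7 tested members was called beside 1.34% of 10889 genes in this class. Gpr179 was seen in 20.2% and 13.8% of Müller glia in NLGF and in 23.3% and 35.0% in WT. Of the 7 tested members 3 (42.9%) were under an unadjusted p of 0.05 in Müller glia, against 11.2% of all genes. Bipolar marker genes, 6 in all, summed to 225 and 211 CPM in Müller glia of NLGF and to 240 and 255 CPM in those of WT, so this sum was also lower in both NLGF libraries, and its part in the Gpr179 value was not tested. Per 100 Pcp2 UMIs, Gpr179 in Müller glia was at 259 and 103 in NLGF and at 283 and 343 in WT. These ratios rest on 98 Pcp2 UMIs in all, and the source of the Gpr179 counts was not tested. The call was lost with DESeq2 (−1.05, adjusted p = 0.968), without a filter on low counts (−1.06, adjusted p = 0.529), without the NLGF male library (−0.69, adjusted p = 0.334) and without the WT male library (−0.89, adjusted p = 0.132). Astrocyte markers, 5 genes, summed to 39.3 and 44.3 CPM in Müller glia of NLGF and to 742 and 57.5 CPM in those of WT, so that the WT female library stood apart, and their part in the Gpr179 value was not tested. Gnao1 in Müller glia was at −0.28 and Gng13 at −0.83, with edgeR adjusted p = 0.236 and 0.303.

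In rods 0 of 10 members were called, beside 0.00803% of 12451 genes. Trpm1 was at 29.1 and 32.0 CPM in NLGF and 39.3 and 42.7 CPM in WT, −0.50 ± 0.11 with unadjusted p = 0.0007 and edgeR adjusted p = 0.42, on counts in which the part of free RNA was not tested. Trpm1 passed without a filter on low counts (−0.49, edgeR adjusted p = 0.0142), a fit in which the share of all genes called was not counted for rods. Without the WT female library Trpm1 was at −0.60 and Gng13 at −0.31, and without the WT male library Gnb3 was at −0.38. Cones had 0 of 7 members called beside 0% of 9508 genes (508 genes at an unadjusted p under 0.05 with edgeR), and Gnb3 was at −0.20 ± 0.08 with edgeR adjusted p = 0.899. Gnb3 in cones was lower in both NLGF libraries than in both WT libraries, as it was in ON cone bipolar cells. Trpm1 in cones was at 10.4 and 61.7 CPM in NLGF and at 6.21 and 35.9 CPM in WT, with both male libraries above both female ones. Its log2 fold change was 2.5 without the WT male library and 1.57 without the NLGF female library. Amacrine cells had 0 of 7 members called beside 0.00919% of 10880 genes, and horizontal cells 0 of 7 beside 0.0353% of 8487 genes. At an unadjusted p under 0.05 edgeR gave 2 of 10 members in rods (8.63% of all genes), 1 of 7 in cones (5.34% of all genes), 0 of 7 in amacrine cells (4.26% of all genes) and 0 of 7 in horizontal cells (4.68% of all genes), and DESeq2 called 0 members in these classes. No member had enough UMIs to be tested in microglia or vascular cells with all 4 libraries, and ganglion cells, with 25 cells in all, were not tested.

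**Figure D5:**
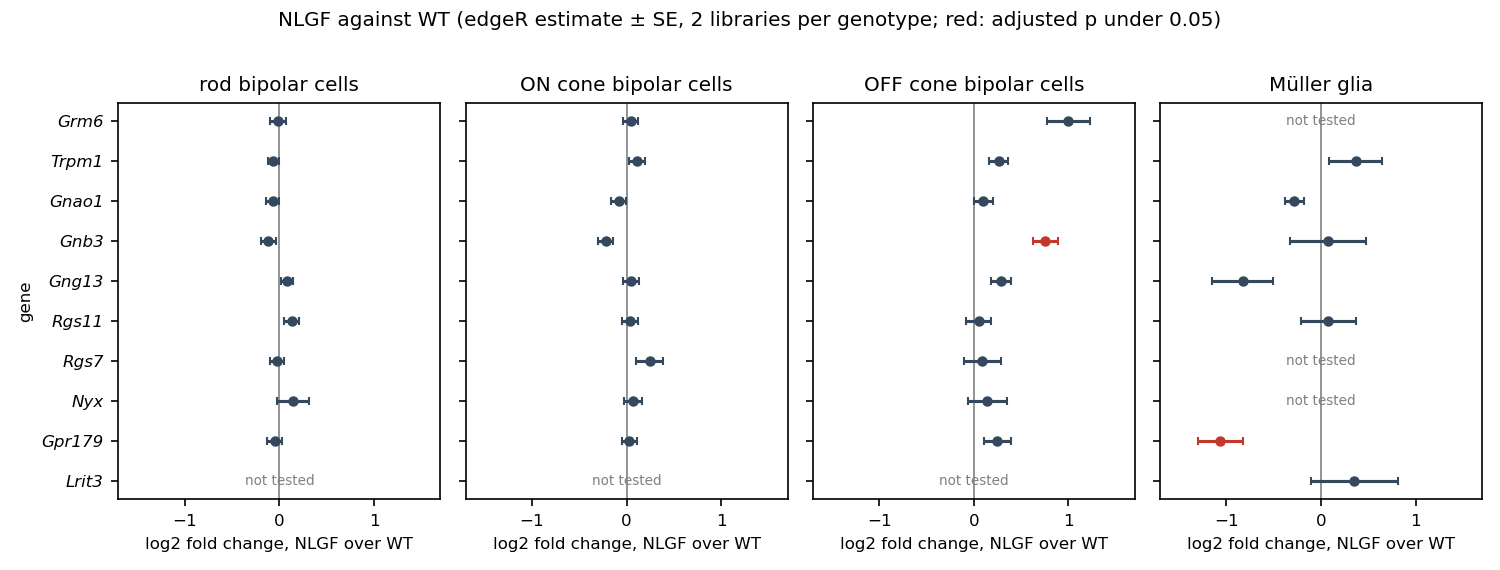
Log2 fold change of NLGF over WT (± SE, n = 2 animals per genotype) for each member tested in rod bipolar, ON cone bipolar, OFF cone bipolar cells and Müller glia, with adjusted p under 0.05 in red. Gnb3 in OFF cone bipolar cells (0.76) and Gpr179 in Müller glia (−1.06) are the 2 red points.

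Other genes of the synapse were read from 5 lists in the same fits, and in rod bipolar, ON cone bipolar and OFF cone bipolar cells 0 of them rose and 0 fell. Among partners of the cascade in ON bipolar cells, 16 of 16 genes could be tested in rod bipolar cells and 15 of 16 in each cone bipolar class. Isl1 was at −0.22 in rod bipolar cells, and Prkca, the protein kinase C alpha of rod bipolar cells, at 0.42 and Pcp2 at −0.22 in ON cone bipolar cells, all with unadjusted p under 0.05 and none past the adjusted threshold. OFF cone bipolar cells had Isl1 as above and Rgs9bp, an anchor of RGS proteins, at 0.42. Prkca was at 1.43 there and rests on the NLGF female library, with 117 and 15.1 CPM in NLGF and 17.3 and 20.1 CPM in WT. Genes of the photoreceptor side of the synapse, with 14 of 16 tested in each class, had Slc17a7 (the vesicular glutamate transporter VGLUT1) at −0.24 in rod bipolar cells and Cabp4 at 0.74 in ON cone bipolar cells. Of 9 ionotropic glutamate receptor genes known from OFF bipolar cells, 4 were tested in rod bipolar, 6 in ON and 7 in OFF cone bipolar cells. Gria2 was at 0.84 in rod bipolar cells, and Gria1 at −0.49 and Neto1, an auxiliary subunit of kainate receptors, at −0.32 in OFF cone bipolar cells. Other G protein subunits and RGS proteins had Gnb2 at 0.70 and Gnaq at 0.29 in ON cone bipolar cells and Gnaz at −1.04 and Gng2 at 0.88 in OFF cone bipolar cells. Of the other group III glutamate receptors, which share the subgroup of mGluR6, Grm7 averaged 2.0 CPM, Grm8 0.9 CPM and Grm4 0 in rod bipolar cells, and 1 of 3 could be tested in each cone bipolar class.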

How the data were processed

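Single-cell libraries of 4 retinas were read from the authors' deposited count matrices, which hold raw UMI counts per gene and barcode. Per the file headers they were made with Cell Ranger 6.1.1, but Cell Ranger 3.1.0, STAR and mm10 appear in the submitters' processing notes. The sources used here do not say whether intron reads count. Depth ranged from 1.91e+07 to 2.35e+07 UMIs per library, over barcodes with at least 500 UMIs each.

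Barcodes with fewer than 300 genes or over 20% mitochondrial UMIs were dropped. The automatic Scrublet threshold marked 2 of 33329 barcodes, so the top 6% of Scrublet scores per library, 1797 barcodes, were removed instead. Cells were clustered with scanpy 1.11.5 (2000 variable genes, 30 components, Leiden resolution 1, the 10 members left out), and bipolar cells were clustered again (1000 genes, 20 components). Clusters were named from listed markers: rod bipolar by a marker score above 1 SD, ON types where Isl1 was at least 2 times Grik1, OFF types where Grik1 was at least 2 times Isl1; 1240 cells stayed unnamed, among them clusters led by markers of another class. This naming rule was set after the clusters were seen.

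Counts were summed per library and class and tested with edgeR 4.0.16 (R 4.3.3; filterByExpr, TMM factors, quasi-likelihood test on genotype alone, Benjamini-Hochberg adjustment over all genes tested). The standard error is the log2 fold change over the square root of F. The interaction fit had the library as a block. Classes with fewer than 10 cells in a library were not tested. The fits were tested on simulated data. Class levels were recomputed with doublets kept and with only cells of at least 1000 UMIs. Alternatives were DESeq2 1.42.0, its size factors, no filter, sex as a block, each library left out, doublets kept, sums thinned to the smallest library, finer bipolar clusters and, chosen after seeing the data, other cluster naming and OFF cone bipolar cells without Isl1 UMIs.

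The members and gene lists were chosen with earlier results of these data known. Named genes were all members, list genes with an unadjusted p under 0.05 in a bipolar class, and otherwise up to 4 list genes by level. Some list genes that met this rule are not reported here. Every library is a different animal; 2 animals per genotype limit what any test can show. Promoter runs came from RefSeq on GRCm38.p6.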

Additional observations from a re-analysis of the deposited data

Results flagged for a closer look

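For Trpm1 the fitted edgeR log2 fold change of NLGF against WT was 0.17 lower in rod bipolar than in ON cone bipolar cells (a difference of −0.17) and 0.33 lower than in OFF cone bipolar cells (−0.33). It drew attention because, in CPM, both NLGF libraries lay below both WT libraries in rod bipolar cells and above them in both cone bipolar classes. After TMM scaling the ON cone bipolar difference was 0.23 between the females and −0.024 between the males, so the pairs differ in sign. The first difference was tested as an interaction and did not pass (−0.18 ± 0.07, edgeR adjusted p = 0.757); the second was not tested.

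Gnb3 also differed between the classes, but with ON cone bipolar cells on the side of rod bipolar cells. Its difference was −0.87 between rod bipolar and OFF cone bipolar cells and −0.98 between ON cone bipolar and OFF cone bipolar cells, since both NLGF libraries lay below both WT libraries in rod bipolar and ON cone bipolar cells and above them in OFF cone bipolar cells. Neither difference was tested. The share of OFF cone bipolar cells that hold an Isl1 UMI was also higher in both NLGF libraries, and its part in the OFF cone bipolar value was not tested.

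A bipolar cluster of 94 cells, led by Slco5a1, was left unnamed because rod genes stood high among its leading genes, and took no part in the comparisons. It held 507 CPM of Grm6, 5045 CPM of Trpm1, 4142 CPM of Gng13, 422 CPM of Rgs7 and 1002 CPM of Gpr179. With these cells added to the rod bipolar class, 0 members passed the edgeR test.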

How the results depend on the processing

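In rod bipolar and ON cone bipolar cells, and in the interaction between them, 0 members were called under every alternative run; the interaction was not fitted with sex as a block. The number of members highest in a bipolar class was 8 with doublets kept and with only cells of at least 1000 UMIs. It was not counted under the other alternatives. In OFF cone bipolar cells the count of 1 called member was 0 with DESeq2, doublets kept, thinned sums, finer clusters or cells without Isl1 UMIs, 2 without a filter and 2 with sex as a replicate block, and 0 to 2 with a library left out. Grm6 was called there without a filter (0.99, adjusted p = 0.00328), under the sex block (0.94, adjusted p = 0.00195) and without the WT male library (1.19, adjusted p = 0.00526). In other classes the count of 1 was 0 with DESeq2 and 2 with doublets kept, where Gnb3 in Müller glia joined. Without a filter on low counts the call was Trpm1 in rods in place of Gpr179 in Müller glia. With a library left out, Gpr179 in Müller glia ran from −1.56 to −0.69. Members in rods and cones also shifted then, as given above. Without the NLGF female library the log2 fold change of Gnb3 in microglia was 4.36. That value rests on 16 Gnb3 UMIs in 12 NLGF male cells, against 1 and 3 UMIs in WT. Cone markers summed to 8324 CPM in microglia of the NLGF male library and to 208 to 417 CPM in those of the other libraries. Gnb3 was highest in cones, and the part of cone RNA in this value was not tested.

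Counts over all genes were 11 in rod bipolar, 0 in ON cone bipolar and 9 in OFF cone bipolar cells. For rod bipolar cells they were 1 with DESeq2, 33 without a filter, 36 with the sex block, 4 with doublets kept, 7 when thinned, 0 with finer clusters, 0 with other cluster naming and 1 to 37 with a library left out. For ON cone bipolar cells they were 5, 34 and 21 under the first 3 of these, 1 when thinned and 5 to 36 with a library left out. For OFF cone bipolar cells they were 3, 31 and 30 under the first 3, 14 with doublets kept, 3 when thinned, 5 with finer clusters, 3 without Isl1 cells and 0 to 40 with a library left out. The cause of these shifts was not tested. Sex pairs the libraries only by the labels' sex, with 2 pairs.

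Member fold changes were recomputed in the bipolar classes and, for Gpr179 only, in Müller glia, 333 values in all. Of these, 292 kept direction and call, 11 lost a call, 3 gained one and 27 changed sign, all 27 from members not called. Other members outside the bipolar classes are not in this count. Of these, Trpm1 in rods gained a call without a filter and Gnb3 in Müller glia with doublets kept. For these members, fits with a library left out are given by fold change only, whether or not they passed. Signs changed for Grm6 in rod bipolar cells to 0.030 when thinned and to 0.012 with finer clusters or other naming; for Rgs7 there to 0.033 with either; for Gpr179 in ON cone bipolar cells to −0.0094 with other naming; for Rgs11 in OFF cone bipolar cells to −0.059 with finer clusters; and, without Isl1 cells, for Gnao1, Rgs11 and Nyx there to −0.031, −0.086 and −0.45. With a library left out, rod bipolar values ran from −0.016 to 0.18 for Gng13, −0.087 to 0.073 for Grm6, −0.062 to 0.0057 for Rgs7 and −0.097 to 0.36 for Nyx. In ON cone bipolar cells they ran from −0.088 to 0.19 for Gng13, −0.026 to 0.093 for Rgs11, −0.046 to 0.099 for Gpr179 and −0.0082 to 0.093 for Grm6. In OFF cone bipolar cells they ran from −0.075 to 0.17 for Rgs11, −0.076 to 0.33 for Rgs7 and −0.047 to 0.39 for Nyx.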
